A study of Mus musculus with 2 samples.

Results

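Fate bias was examined inside 1 cell class of mouse bone marrow stroma, the class that the authors labelled MSC (taken to mean mesenchymal stromal or stem cell). The bias of a cell is the authors' deposited probability of an osteoblast fate minus their probability of an adipocyte fate, so it rises towards bone and falls towards fat. MSC held 1317 of the 2847 cells that passed the authors' filter, 502 of 948 in Stroma1 and 815 of 1899 in Stroma2. In each sample the MSC cells were ranked by bias and cut into 4 groups of equal size. The lowest, called the adipocyte-leaning group, held 126 cells of Stroma1 and 204 of Stroma2, and the highest, the osteoblast-leaning group, held 125 and 203, or 658 cells in all. Counts of every gene were summed per group and sample and the 2 groups were compared.

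The cells came from mice with the strain label C56BL/6, aged 8 to 16 weeks, for which the labels give no genotype or treatment. Femurs, tibiae and pelvic bones were crushed, the fragments were digested with collagenase and dispase, and viable cells negative for CD45, Ter119 and CD31 (proteins on the surface of white blood cells, erythroid cells and endothelium) were sorted. RNA of single cells was counted with inDrops, a droplet method that tags each cell's transcripts with a barcode. The series holds 1 condition and 2 samples, named Stroma1 (libraries 1.1 and 1.2) and Stroma2 (2.1, 2.2 and 2.3). The labels do not say whether these came from separate animals. The p-values below therefore rest only on the spread among sums of these 2 samples, largely pooled over genes, and this spread may be technical.

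Marrow stromal cells that express the leptin receptor, the chemokine Cxcl12 and the Kit ligand surround the sinusoids and feed blood stem cells. They are also the main adult source of new marrow adipocytes and osteoblasts. The adipocyte route is driven by the transcription factors Pparg and Cebpa, and the osteoblast route by Runx2 and then Sp7, with Wnt and BMP signals acting on the choice. Immediate-early genes, named often below, are switched on within minutes of many stimuli without new protein synthesis. Most encode transcription factors of the AP-1, Egr and Nr4a families or proteins that end the signal, and growth factors, cytokines, mechanical strain and the enzymatic dissociation of tissue all induce them.

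The bias of MSC cells was narrow. Its median was 0.0118 in both samples, between the medians of Adipocyte progenitor (−0.0255 in Stroma1 and −0.0241 in Stroma2) and of Osteoblast progenitor (0.0173 and 0.0187). Pre-adipocyte, the end of the fat route, had medians of −0.126 and −0.120, and Pro-osteoblast, the end of the bone route, 0.146 and 0.147. In Stroma1 the MSC cells ran from −0.0207 to 0.0323 and in Stroma2 from −0.00482 to 0.122, and only 2 and 7 cells lay below 0. The last cell inside the adipocyte-leaning group had a bias of 0.0106278 in Stroma1 and 0.0106365 in Stroma2, and the first cell outside it 0.0106737 and 0.010638. The osteoblast-leaning group began at 0.0124011 and 0.012522, and the cells just outside it had 0.012393 and 0.0125162. The ends of the groups thus lay on a continuous slope, and 1 cell of Stroma1 and 3 of Stroma2 stood 0.03 or more from 0.

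**Figure D1:**
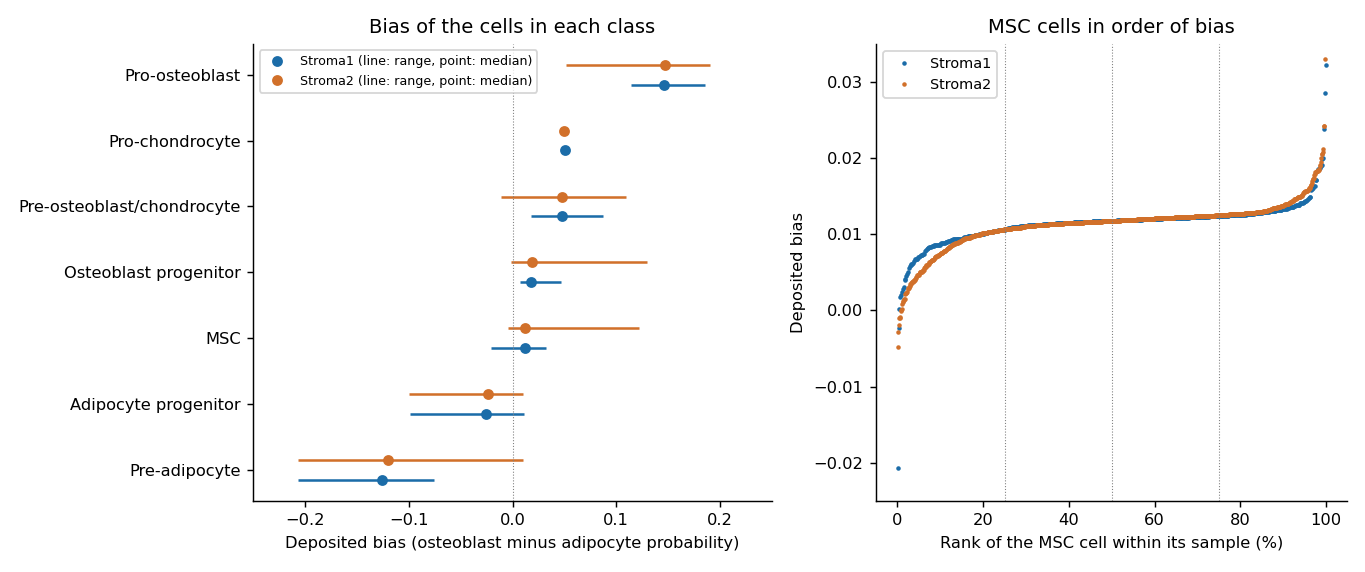
Left, deposited bias (osteoblast minus adipocyte probability, no unit) of the cells of each class, with the range as a line and the median as a point, for Stroma1 (blue) and Stroma2 (orange). Right, the MSC cells of each sample in order of bias, with dotted lines at the group limits; 2 cells above 0.035 lie outside the plot. MSC medians of 0.0118 lie between those of the 2 progenitor classes, and the middle of the MSC order is almost flat.

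Both ends of the MSC order lay further along the authors' paths than its middle. Pseudotime, the authors' rank of a cell along a path from 0 to 1, had a median of 0.485 in Stroma1 and 0.503 in Stroma2 on the adipocyte path for cells of the adipocyte-leaning group, against 0.198 and 0.197 in group 2, counted from the adipocyte end. On the osteoblast path the osteoblast-leaning group had medians of 0.437 and 0.487, against 0.186 and 0.202 in group 3. Each end was also further than the middle on the opposite path, where that path held its cells. Adipocyte-leaning cells had medians of 0.434 and 0.388 on the osteoblast path, and osteoblast-leaning cells 0.383 and 0.360 on the adipocyte path, so in Stroma1 both ends stood alike on the osteoblast path. Every cell of the adipocyte-leaning group was on the adipocyte path, and 73.8% (exact Clopper-Pearson 95% interval 65.2 to 81.2) and 57.4% (50.3 to 64.2) were also on the osteoblast path. Every cell of the osteoblast-leaning group was on the osteoblast path, and 70.4% (61.6 to 78.2) and 60.6% (53.5 to 67.4) were also on the adipocyte path. These values come from the same deposited analysis as the bias and are a description.

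Depth and the mitochondrial share moved with the bias. Between the deposited adipocyte-leaning and osteoblast-leaning groups the median count per cell went from 1506 to 1247 in Stroma1 and from 1261 to 842 in Stroma2. In the groups of the rebuilt bias, which is explained below and carries every test, it went from 1506 to 1244 and from 1455.5 to 905, and within library 2.2 from 1740.5 to 905. Mitochondrial counts made up 4.10% to 4.52% of the counts in the deposited groups with no common order. In the rebuilt groups they rose towards the osteoblast end in both samples, from 4.03% to 4.70% in Stroma1 and from 4.10% to 4.90% in Stroma2. Each library gave 20.6% to 30.9% of its MSC cells to either end on either order. Libraries of 1 sample shared 13 barcode sequences among 26 MSC cells in Stroma1 and 39 among 81 cells in Stroma2, so some cells may have been counted more than once. All 12 markers of leptin receptor stroma were detected, and they summed to 83908 and 82043 CPM in the deposited ends of Stroma1 (CPM is a count scaled to a common total per sum) and to 85391 and 85005 in those of Stroma2.

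Osteoblast markers (10 of 10 listed genes counted) had no common direction. Towards the osteoblast end they fell in Stroma1, from 8539 to 7031 CPM on the deposited and from 8523 to 7758 on the rebuilt order. In Stroma2 they rose, from 8067 to 9062 and from 7577 to 10016. Markers of blood, endothelial and fibroblast cells were counted at low levels in both ends. On the rebuilt order, B lineage markers (7 of 10 listed genes counted) were lower at the osteoblast end in both samples, 158 against 12.5 CPM in Stroma1 and 174 against 33.4 in Stroma2, from at most 6 cells, while on the deposited order they stood at 48.4 and 197 in Stroma1 and at 244 and 84.5 in Stroma2. Smooth muscle and pericyte markers (10 of 10 counted) were higher at the deposited osteoblast end, 320 against 539 CPM and 275 against 373, and on the rebuilt order went from 307 to 579 in Stroma1 and from 346 to 301 in Stroma2. Mature adipocyte markers (5 of 8 counted over all MSC cells) were lower at the osteoblast end in both samples on both orders. On the rebuilt order they went from 1979 to 1776 CPM in Stroma1 and from 1854 to 1537 in Stroma2. In the deposited ends they went from 1991 to 1802 CPM and from 2181 to 1552. Cidec, Retn, Lep, Ucp1, Pck1 and Cfd were at 0 there, which leaves Plin1 and Adipoq. Adipoq, also on the list of leptin receptor stroma markers, stood at 1925 and 1808 CPM in MSC. Erythroid markers (6 of 8 in the table counted, Alas2 at 0) stood at 63.0 to 94.5 CPM, granulocyte markers (10 of 10 counted, Mpo and Ltf at 0 in the ends) at 6.97 to 57.1, and macrophage markers (7 of 10 counted, C1qa, C1qb and Adgre1 at 0) at 4.97 to 25.4. Endothelial markers (10 of 10 counted) stood at 4.97 to 80.1 CPM and fibroblast markers (7 of 8 counted) at 0 to 69.7. The part of depth, of the mitochondrial share and of these markers in the gene differences was not tested beyond the alternatives given with the results.

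The groups of the deposited bias were chosen with the expression of the same cells, so gene differences between them are given as a description, with no test. A gene is counted there where its CPM differed by at least 2-fold in the same direction in both samples. Of 4800 genes with enough counts, 30 (0.625%) were higher and 53 (1.1%) were lower in the osteoblast-leaning group. For a test, each count was assigned at random to an ordering part or to a held-out part. The bias was rebuilt from the ordering part alone, with a random walk over similar cells. It is the chance that the walk ends in Pro-osteoblast minus the chance that it ends in Pre-adipocyte. Genes were tested between the groups of this rebuilt bias in the held-out counts. Both parts come from the same cells, so the split removes only counting noise. A gene that helped to order the cells is therefore expected to differ in the held-out counts too. Within MSC the rebuilt and the deposited bias had Spearman correlations of 0.531 in the 502 cells of Stroma1 and 0.565 in the 815 of Stroma2. Of the cells of the deposited adipocyte-leaning group, 68.3% and 62.7% were also in the rebuilt one, and of the osteoblast-leaning group 46.4% and 49.3%. The rebuilt bias is thus a relative of the deposited one, not a copy. Its medians were −0.814 in Stroma1 and −0.812 in Stroma2 in the adipocyte-leaning group, and −0.750 and −0.744 in the osteoblast-leaning one. Most walks from either end thus finished in Pre-adipocyte, while the deposited medians were above 0 at both ends. The group names give an order of the cells and not their fate. The authors' classes, whose ends direct the walk, still rest on all counts, and if the deposited counts are reads and not molecules the 2 parts can share noise.

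With edgeR's quasi-likelihood test and Benjamini-Hochberg adjustment over 2621 genes, 8 genes (0.305%) rose and 31 (1.18%) fell in the osteoblast-leaning group at an adjusted p under 0.05. Of the 31 genes that fell 14 were on the list of immediate-early genes, and the largest estimates among the 8 that rose were those of Col1a1, Sdhc and Mmp13. All 39 had the same direction in both samples. Of the 31, 20 were also lower by at least 2-fold in both samples between the deposited groups, which is 64.5% of the tested and 37.7% of the deposited list. Of the 8, none reached 2-fold in both samples there, and 7 had the same direction in both. Without the 4 cells of outlying bias, a choice made after seeing the data, 4 genes rose and 28 fell.

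**Figure D2:**
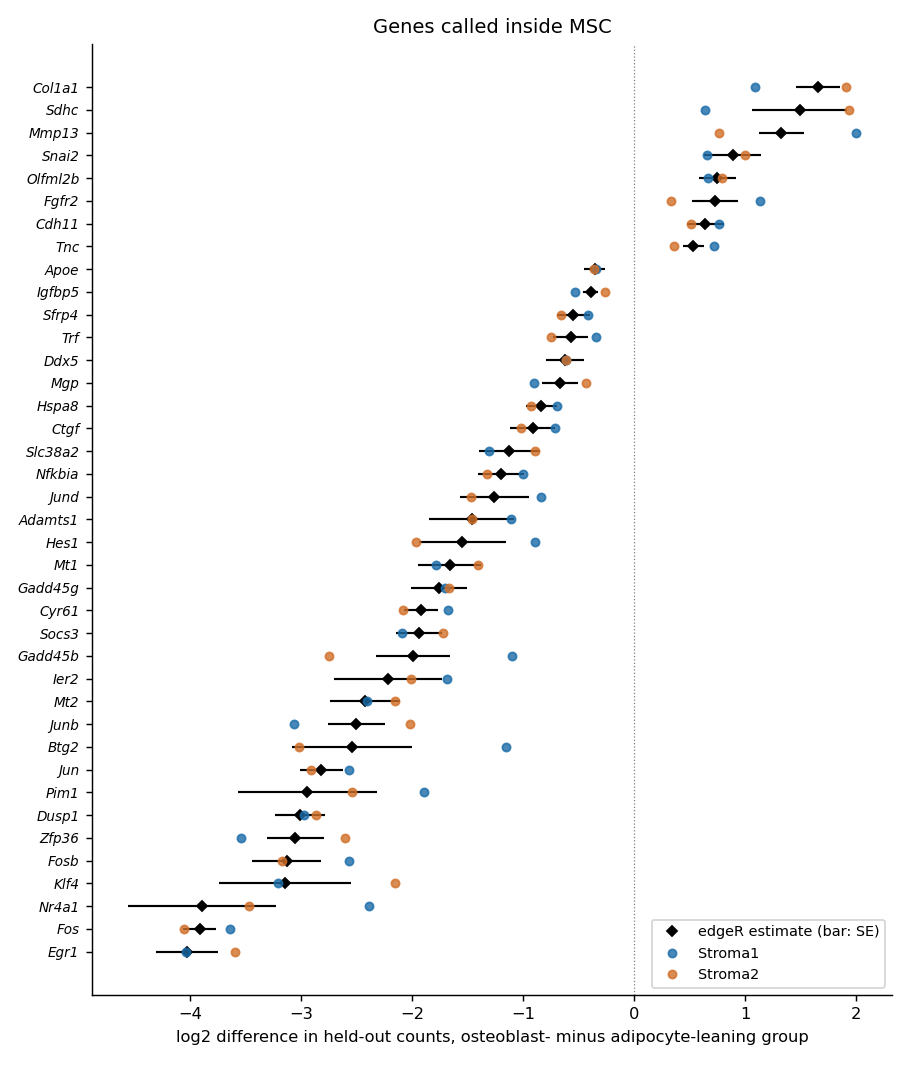
log2 difference between the osteoblast-leaning and the adipocyte-leaning group of the rebuilt bias in held-out counts, for the 39 genes called (rows), with the edgeR estimate (diamond, bar for its standard error) and the value in each sample (circles). The 31 genes to the left of 0 were lower and the 8 to the right higher towards bone, and both samples lie on the same side of 0 for every gene.

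Immediate-early genes fell together towards the osteoblast end. Of 29 listed genes 21 had enough held-out counts, and 14 of these fell and none rose, against 1.18% and 0.305% of all genes tested. The median log2 difference of the 21 was −2.22 and that of all genes −0.00. Fos, a subunit of the transcription factor AP-1 (GRCm38 chromosome 12, 85473890 to 85477274), stood at 6161 CPM of held-out counts in the adipocyte-leaning group of Stroma1 and 6724 in Stroma2. In the osteoblast-leaning group it stood at 486 and 400.0 CPM, so that the groups did not overlap. The estimated log2 difference was −3.91 (SE 0.15, edgeR adjusted p = 1.4e-50). Egr1, a zinc finger transcription factor, stood at 1484 and 1310 CPM against 74.8 and 95.2 (log2 difference −4.03, SE 0.28). Nr4a1, an orphan nuclear receptor, stood at 205 and 284 CPM against 24.9 and 9.52 (log2 difference −3.89, SE 0.66). The middle groups lay between the ends or close to the osteoblast end, with Fos at 1846 and 460 CPM in groups 2 and 3 of Stroma1 and 1664 and 477 in Stroma2.

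The other AP-1 subunits followed Fos. Fosb stood at 672 and 974 CPM in the adipocyte-leaning groups of Stroma1 and Stroma2 and at 99.8 and 95.2 in the osteoblast-leaning ones. Jun fell from 2194 and 2129 CPM to 362 and 276, and Junb from 1055 and 987 to 112 and 238. Jund, which is expressed more steadily than its relatives, fell by 1.26 on the log2 scale (SE 0.31, edgeR adjusted p = 0.0099). The genes whose products end the response fell as well. Dusp1, a phosphatase that switches off MAP kinases, fell from 1568 and 1658 CPM to 187 and 219, a log2 difference of −3.01 (SE 0.23). Zfp36, a protein that destroys short-lived messenger RNAs, fell from 1046 and 1265 CPM to 74.8 and 200. Btg2, which slows proliferation, had log2 differences of −1.16 in Stroma1 and −3.02 in Stroma2, and Socs3, an inhibitor of cytokine signals, −2.09 and −1.72. Cyr61, a matricellular protein, fell by 1.92 (SE 0.15), and Ier2, a nuclear protein, had a difference of −2.22. Klf4, a zinc finger factor, stood at 261 and 226 CPM against 12.5 and 38.1. Of the listed genes that were tested and not called, Klf6 had a log2 difference of −0.58, Btg1 −0.63 and Rhob 0.16.

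Promoters of 3 of these genes and of Mmp13, a gene that rose, are printed because they hold motifs of factors known to act on immediate-early genes (the cyclic AMP response element and the CArG box) or made by them (AP-1). Each is the 200 bases before the RefSeq transcript start in the GRCm38.p6 build, 5′ to 3′ on the gene's strand. Capitals mark the cyclic AMP response element TGACGTCA in Dusp1 (chr17:26508473-26508672, minus strand) and Btg2 (chr1:134079156-134079355, minus strand). In Zfp36 (chr7:28379229-28379428, minus strand) they mark a CArG box, the motif of serum response factor, and in Mmp13 (chr9:7272314-7272513, plus strand) the AP-1 motif TGANTCA.
Dusp1: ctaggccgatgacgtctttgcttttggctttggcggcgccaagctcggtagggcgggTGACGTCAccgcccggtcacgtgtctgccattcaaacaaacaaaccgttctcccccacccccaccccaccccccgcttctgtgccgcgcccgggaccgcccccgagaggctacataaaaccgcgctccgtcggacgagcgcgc
Btg2: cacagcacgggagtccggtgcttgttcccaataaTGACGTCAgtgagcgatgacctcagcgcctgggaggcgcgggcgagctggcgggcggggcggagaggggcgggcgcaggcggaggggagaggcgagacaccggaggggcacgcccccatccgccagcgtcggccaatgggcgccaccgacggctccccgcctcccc
Zfp36: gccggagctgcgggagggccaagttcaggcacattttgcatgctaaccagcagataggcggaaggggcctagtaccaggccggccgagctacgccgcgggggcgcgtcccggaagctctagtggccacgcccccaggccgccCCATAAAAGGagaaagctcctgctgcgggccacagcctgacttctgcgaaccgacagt
Mmp13: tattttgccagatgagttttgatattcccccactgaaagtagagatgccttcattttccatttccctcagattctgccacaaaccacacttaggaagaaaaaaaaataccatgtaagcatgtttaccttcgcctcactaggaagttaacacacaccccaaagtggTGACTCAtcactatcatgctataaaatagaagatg
Over the 250 bases before the start, on both strands, TGACGTCA was in 1.55% of 32851 promoters, TGANTCA in 6.75%, and the CArG box in 1.47%. Of the 31 genes that fell, 24 were matched to a promoter by symbol. TGACGTCA was found in 2 of them, the CArG box in 1 and TGANTCA in 1 (Mt2). The shorter TGACG, which every TGACGTCA contains, was in 12 of the 24, Fos, Fosb, Nr4a1, Klf4 and Junb among them, and in 17.8% of all promoters. Of the 8 genes that rose 4 were matched, and TGANTCA was found in 1, Mmp13. A match is a description of the letters and not evidence of binding, and a gene with several starts has more windows to match in.

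Fewer cells of the osteoblast-leaning end had a count of these genes. Between the deposited groups, a description, Fos was counted in 87.3% (exact interval 80.2 to 92.6) of adipocyte-leaning cells of Stroma1 and 85.3% (79.7 to 89.9) of Stroma2, and in 36.0% (27.6 to 45.1) and 26.1% (20.2 to 32.7) of osteoblast-leaning cells. With each cell thinned to 500 counts the osteoblast-leaning shares were 22.4% and 19.2%, against 100 of 126 and 159 of 204 cells in the adipocyte-leaning group. Egr1 was counted in 63.5% and 64.2% of adipocyte-leaning cells and in 16.8% and 12.3% of osteoblast-leaning cells. The 29 listed genes took 1.98% of all counts in the adipocyte-leaning group of Stroma1 and 2.15% in Stroma2, and 0.605% and 0.539% in the osteoblast-leaning one. Cells in which they exceeded 1% of the counts made up 77.8% and 84.8% of the first and 17.6% and 16.3% of the last group. The step lay between the first and second group, where the share of counts dropped to 0.779% and 0.859%. By this share of counts the other 3 groups lay close together, and the adipocyte-leaning end stood above them in both samples. Cells over 1% still fell from 31.2% and 34.3% in group 2 to 17.6% and 16.3% in group 4. On the rebuilt order, which carries every test, group 2 lay between the ends. There 94.4% and 97.1% of cells exceeded 1% in group 1, 43.2% and 40.2% in group 2, and 7.14% and 9.8% in group 3. In group 4 of that order 4.8% and 11.3% of cells did.

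**Figure D3:**
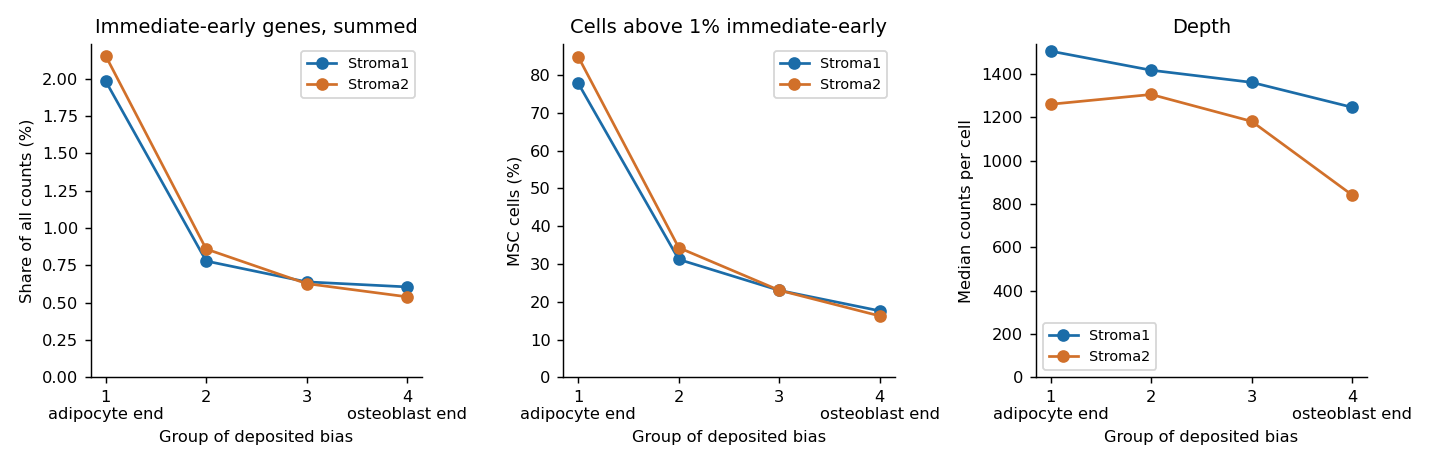
By group of the deposited bias (1, adipocyte end, to 4, osteoblast end) in Stroma1 (blue) and Stroma2 (orange): the share of all counts in 29 immediate-early genes, the share of cells in which they exceed 1% of counts, and the median counts per cell. The first group stands at 1.98% and 2.15% of counts and the other groups between 0.539% and 0.859%, while depth falls less, from 1506 to 1247 and from 1261 to 842.

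The immediate-early difference was present in each library. In the held-out counts of each of the 5 libraries alone, Fos differed by −4.65 to −3.25, Egr1 by −4.49 to −2.56 and Dusp1 by −3.38 to −2.32 on the log2 scale. Across 15 other settings of the test, 12 of the 31 genes that fell passed in every one, and 9 of these 12 were immediate-early genes (Fos, Egr1, Fosb, Jun, Junb, Zfp36, Dusp1, Socs3 and Cyr61). The other 3 were Mt1, Mt2 and Gadd45g. With every cell thinned to the same number of held-out counts 14 genes fell and 8 rose. Those 8 are not the 8 of the main test, of which only Col1a1, Olfml2b and Tnc passed at equal depth. Whether handling of the tissue has a part in the immediate-early levels was not tested. Between classes, Fos stood at 15768 and 13157 CPM of all counts in Pre-adipocyte, 13321 and 12866 in Adipocyte progenitor, 2483 and 2670 in MSC, 1995 and 2527 in Osteoblast progenitor, 3296 and 4043 in Pre-osteoblast/chondrocyte, 4302 and 4617 in Pro-chondrocyte and 299 and 274 in Pro-osteoblast. The classes of the adipocyte route were thus the highest, and the order beyond MSC was mixed. Egr1 (570 and 799 CPM against 565 and 544), Klf4 (214 and 195 against 97.4 and 108) and Fosb (373 and 396 against 304 and 358) were higher in Osteoblast progenitor than in MSC.

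Outside the immediate-early list 17 genes fell, and most members of the stress and cytokine lists were not called, against 1.18% of all tested genes that fell. The metallothioneins Mt1 and Mt2 bind zinc and copper, lie side by side on chromosome 8, and were the only 2 of 16 tested metallothionein, ferritin and redox genes that passed. Mt2 stood at 663 and 594 CPM of held-out counts in the adipocyte-leaning group and at 112 and 124 in the osteoblast-leaning one (log2 difference −2.42, SE 0.31, edgeR adjusted p = 8.4e-10). Mt1 fell by 1.66 (SE 0.28). Nfkbia, the inhibitor of NF-kappaB that NF-kappaB itself induces, fell by 1.20 (SE 0.21) and was the 1 of 9 tested chemokine and cytokine genes called, on a list with a median of 0.04. Hes1, a target of Notch, fell by 1.55 (SE 0.39) and was the 1 of 7 Notch genes called. Hspa8, a constitutive chaperone, fell by 0.83 (SE 0.14) and was the 1 of 18 heat shock and folding genes called. Among the genes that fell were also the kinase Pim1 (−2.94), the stress genes Gadd45b (−1.99) and Gadd45g (−1.76), the matrix protease Adamts1 (−1.46) and the matricellular Ctgf (−0.91). Adamts1 passed in only 6 of the 14 other settings that measured it, Hes1 in 10 of 14 and Ctgf in 10 of 15. The transporters Slc38a2 and Trf and the helicase Ddx5, which with Gadd45g, Cyr61, Socs3 and Jund fall outside the rule for naming genes and were named after their values were seen, fell by 1.13, 0.57 and 0.63. Slc38a2 and Trf each passed in 8 of 15 other settings and Ddx5 in 9.

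Cxcl10, an interferon-induced chemokine, led the genes that were lower in the deposited osteoblast-leaning group, by the smaller of its 2 samples' differences, but rested on few cells. It stood at 460 and 199 CPM of all counts in the adipocyte-leaning groups of Stroma1 and Stroma2 and was not counted in any osteoblast-leaning cell. This allows a share of cells with a count of up to 2.91% of 125 and 1.80% of 203, and a cell without a count may still express Cxcl10. It was counted in 11 of 126 and 10 of 204 adipocyte-leaning cells, and its highest cell held 48 of 95 counts in Stroma1 and 23 of 57 in Stroma2. In the held-out counts it was not called (log2 difference −2.27, SE 0.99, edgeR adjusted p = 0.48). Cxcl1, a neutrophil attractant, stood at 155 and 146 CPM of all counts against 25.4 and 14.9, and its held-out difference of −4.28 (SE 1.28) missed the threshold with an edgeR adjusted p of 0.071. Of 14 tested interferon and antigen presentation genes none was called, against 0.305% and 1.18% of all genes tested, with a median log2 difference of −0.03.

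The 8 genes that rose towards the osteoblast end belong to several lists. On the fixed lists 1 of 12 collagen chains rose (Col1a1), 1 of 18 proteases and inhibitors rose (Mmp13) and 1 fell (Adamts1), and 1 of 18 proteoglycans and matricellular proteins rose (Tnc) and 1 fell (Ctgf), against 0.305% and 1.18% of all genes tested. Of the 8 genes, all but Col1a1 were lower in Pro-osteoblast, the end class, than in MSC. Tnc stood at 224 and 121 against 4470 and 4218 CPM of all counts and Mmp13 at 85.5 and 78.6 against 613 and 584. Snai2 stood at 21.4 and 21.4 against 394 and 397, and Olfml2b at 107 and 33.8 against 949 and 956. Tnc, the matrix glycoprotein tenascin C (chromosome 4, 63959785 to 64047015), stood at 3509.9 and 3794 CPM of held-out counts in the adipocyte-leaning and at 5900.3 and 5048 in the osteoblast-leaning groups of Stroma1 and Stroma2. Its log2 difference of 0.53 (SE 0.10, edgeR adjusted p = 1.8e-05) was positive in all 5 libraries, and in Stroma1 its level was higher in each group than in the one before. Mmp13, the collagenase that cuts fibrillar collagen (chromosome 9, 7272514 to 7283333), stood at 327 and 555 CPM against 1385 and 990.5 and rose by 1.32 (SE 0.20, edgeR adjusted p = 2.9e-07). It was higher in all 5 libraries, by 0.22 to 2.66. Olfml2b, a secreted matrix binding protein, rose by 0.75 (SE 0.17), from 775 and 858 CPM to 1260 and 1552. Tnc and Mmp13 each passed in 13 of 15 other settings and Olfml2b in 12.

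Col1a1, the main chain of bone collagen (chromosome 11, 94936224 to 94953042), had the largest estimate among the 8 genes and rested on few cells. It stood at 364 and 523 CPM of held-out counts in the adipocyte-leaning and at 811 and 2076 in the osteoblast-leaning groups, a log2 difference of 1.66 (SE 0.20, edgeR adjusted p = 1.7e-11). Without the 4 cells of outlying bias the difference was 0.71 (adjusted p = 0.079), and with each barcode counted once per sample it was 0.62 (adjusted p = 0.31). In the deposited osteoblast-leaning group of Stroma2, 153 of its 414 counts lay in 1 cell. Between the deposited groups it stood at 562 and 432 CPM against 533 and 2059, so Stroma1 showed no rise. Its partner chain Col1a2 was at 6002 and 5788 CPM against 6374 and 7752 of held-out counts and was not called (log2 difference 0.23, SE 0.08). Pro-osteoblast, the end class, had 201263 and 202082 CPM of Col1a1.

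Of the remaining genes that rose, Cdh11, a cadherin of mesenchymal cells, stood at 784 and 871 CPM against 1372 and 1295 (log2 difference 0.64, SE 0.17, edgeR adjusted p = 0.014). Snai2, a zinc finger repressor with roles in mesenchymal cells, stood at 289 and 258 CPM against 474 and 552 (0.89, SE 0.26, edgeR adjusted p = 0.048). Fgfr2, a fibroblast growth factor receptor, rose by 0.73 (SE 0.21), with 1.13 in Stroma1 and 0.33 in Stroma2. Sdhc, a subunit of respiratory complex II, rose by 1.49 (SE 0.43, edgeR adjusted p = 0.047). These calls were less stable than that of Tnc. Cdh11 passed in 8 of 15 other settings, Fgfr2 in 5, Snai2 in 4, and Sdhc in 1 of the 14 that measured it, and with the ordering and held-out counts exchanged Sdhc differed by 0.08 and Fgfr2 by 0.16. With every cell thinned to equal depth Cdh11 differed by 0.02 (edgeR adjusted p = 0.99) and Mmp13 by 0.77 (edgeR adjusted p = 0.20). Cdh11 and Snai2 were also higher in both samples between the deposited groups, by 0.59 and 0.72 and by 0.63 and 1.17.

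Few regulators and markers of the bone route could be tested or passed. Of 15 osteogenic transcription factors 4 had enough held-out counts, 1 rose (Snai2) and 3 were not called, with Runx2, which osteoblasts need, at −0.24 (SE 0.30), Atf4 at −0.02 and Cbfb at 0.59. Sp7, which acts after Runx2, was too low for the test and stood at 24.2 and 24.4 CPM of all counts in the deposited adipocyte-leaning and at 108 and 34.8 in the osteoblast-leaning groups, from 5 and 7 against 15 and 7 cells. Of 11 osteoblast matrix and mineralization genes Col1a1 rose and Mgp, an inhibitor of mineralization, fell by 0.67 (SE 0.16), a call lost in 8 of 15 other settings. Alpl, the phosphatase that drives mineralization, had a log2 difference of 0.66 (SE 0.51) and Spp1, osteopontin, 0.15 (SE 0.13), and neither was called. Bglap and Sox9 had too few counts. None of the 17 chondrogenic genes could be tested.

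**Figure D4:**
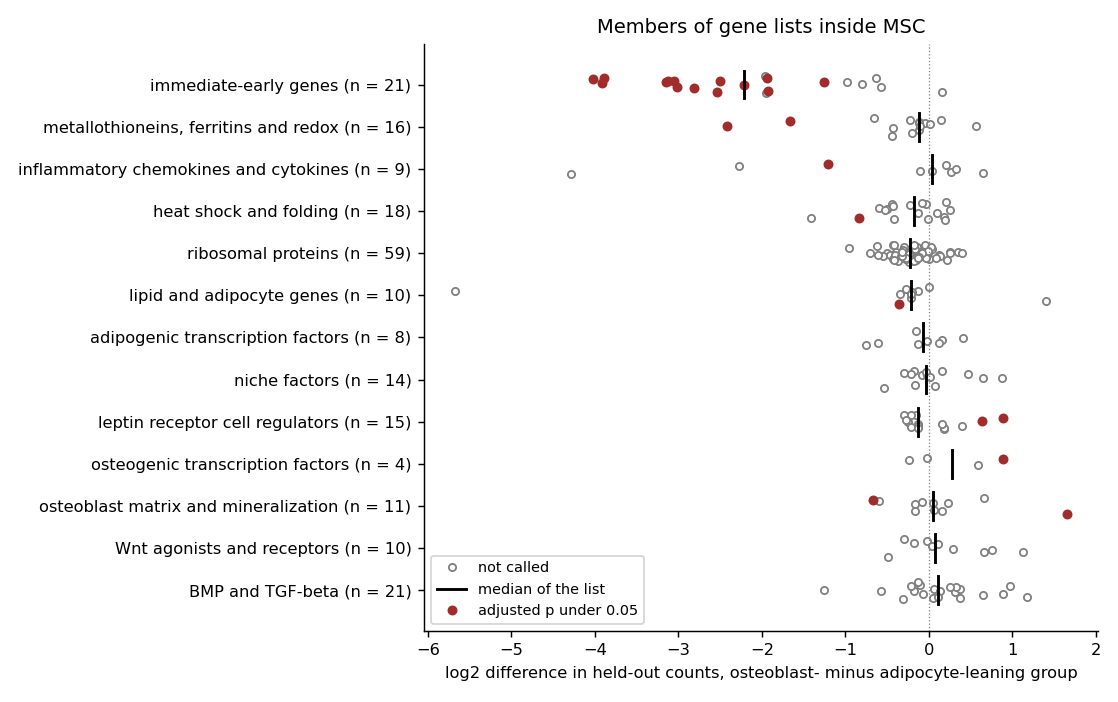
log2 difference in held-out counts between the osteoblast-leaning and the adipocyte-leaning group for the tested members of 13 gene lists, with called genes filled and the median of each list as a bar. The immediate-early median is −2.22, and the medians of the other lists shown lie between −0.22 and 0.28.

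Genes of the fat route gave few calls. None of 8 adipogenic transcription factors was called, against 0.305% of all genes tested that rose and 1.18% that fell. Cebpb and Cebpd, early factors of adipogenesis that cytokines also induce, had log2 differences of −0.76 (SE 0.26, edgeR adjusted p = 0.21) and −0.61 (SE 0.22), with Cebpb lower in both samples. Cebpa, the later factor, stood at 756 and 607 CPM in the adipocyte-leaning and 761 and 781 in the osteoblast-leaning groups and did not pass. Pparg was too low to test and stood at 53.3 and 62.7 CPM of all counts against 108 and 54.7 between the deposited groups, which shows no common direction. Of 10 lipid and adipocyte genes 1 fell, Apoe, a carrier of lipids, by 0.35 (SE 0.09, edgeR adjusted p = 0.019), from 4938 and 4736 CPM to 3954 and 3810. The Apoe call passed in 9 of 15 other settings, equal depth not among them, and its smallest difference was −0.11. Adipoq, the adipokine adiponectin, had a difference of −0.28 (SE 0.14) and Lpl, lipoprotein lipase, of 0.00 (SE 0.09). Fabp4 was counted mostly in 1 sample, at 171 CPM of all counts in the adipocyte-leaning group of Stroma2 and 9.69 in that of Stroma1.

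No niche factor passed the test. None of 14 tested was called and their median log2 difference was −0.03. Of all genes tested 0.305% rose and 1.18% fell, so a list of 14 without a call is near that share. Cxcl12 took 63898 and 65532 CPM of held-out counts in the adipocyte-leaning and 62021 and 63286 in the osteoblast-leaning groups, a difference of −0.08 (SE 0.04). Kitl, which keeps blood stem cells alive, differed by −0.02 (SE 0.15), Vcam1, an adhesion molecule, by 0.07 (SE 0.11), and Angpt1, which binds the receptor Tie2, by −0.30 (SE 0.31). Bmp4 had 364 and 361 CPM against 773 and 448, and its difference of 0.65 (SE 0.24) did not pass. Among the regulators of the class Lepr was at −0.29 (SE 0.13), Foxc1 at 0.18 (SE 0.18), Ebf3 at −0.13 (SE 0.16) and Grem1, a BMP inhibitor, at −0.21 (SE 0.25). Of 15 genes on that list 2 rose, Snai2 and Cdh11, against 0.305% of all genes tested, and none fell.

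Signals that act on the choice of fate gave isolated values. Rspo2, which strengthens Wnt signals by sparing their receptors (chromosome 15, 43020788 to 43171594), was higher in both samples between the deposited groups, 362 against 131 CPM of all counts in Stroma1 and 224 against 87.1 in Stroma2. In held-out counts it stood at 159 and 103 CPM against 312 and 267, and its difference of 1.13 (SE 0.35) did not pass (edgeR adjusted p = 0.10). The Wnt receptor Fzd2 and Porcn, which acylates Wnt proteins, were also at least 2-fold higher in both samples between the deposited groups, but at 63.5 to 89.5 CPM or less and too low for the test. None of 10 tested Wnt agonists and receptors was called, against 0.305% of all genes tested that rose and 1.18% that fell. Of 3 secreted Wnt inhibitors Sfrp4 fell by 0.55 (SE 0.15, edgeR adjusted p = 0.023), a call lost in 10 of 15 other settings, while Wif1 had a difference of 0.51 (SE 0.29). Nog, the BMP inhibitor noggin, stood at 24.2 and 24.4 CPM of all counts in the deposited adipocyte-leaning and at 82.5 and 109 in the osteoblast-leaning groups, from 3 and 5 cells against 9 and 7, with 12 of 22 counts in 1 cell of Stroma2. None of 21 tested BMP and TGF-beta genes was called, against the same shares. Igfbp5, an abundant binding protein of insulin-like growth factors, fell from 12481 and 12266 CPM to 8794 and 10581. Its log2 difference was −0.39 (SE 0.07, edgeR adjusted p = 1.1e-05). Its middle groups stood above both ends, at 13202 and 14553 CPM in group 2 and 13326 and 15091 in group 3. The Igfbp5 call passed in 11 of 15 other settings, and was lost with DESeq2, with the extreme groups alone and with other random splits.

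The other highest genes of the deposited groups were low in level. Mmp11, a stromelysin, stood at 24.2 and 27.9 CPM of all counts against 140 and 89.5, in 5 and 8 against 16 and 17 cells. Coa3 and Aak1, of complex IV assembly and endocytosis, reached 57.1 and 74.6 CPM each in the osteoblast-leaning group, Bbip1, of the BBSome, 69.8 and 49.7, and the co-chaperone Dnaja2 190 and 139. Fn1, fibronectin, stood at 38.7 and 66.2 CPM against 102 and 194, and its held-out difference of 1.87 (SE 0.65) did not pass. Of these genes only Dnaja2 and Fn1 had enough held-out counts, and Dnaja2 differed by 0.27 (SE 0.49).

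None of 59 ribosomal protein genes was called, against 0.305% of all genes tested that rose and 1.18% that fell. Their median log2 difference in held-out counts was −0.22, with 37 lower and 6 higher in both samples, against 715 and 690 of 2621 genes. Between the deposited groups 53 of 59 were lower in both samples and none was higher, with medians of −0.48 in Stroma1 and −0.40 in Stroma2. Depth per cell was also lower at that end (1247 and 842 against 1506 and 1261), and its part in these values was not tested. Respiratory chain genes (1 of 37 called, Sdhc), cell cycle genes (none of 6) and hormone receptors (none of 15) had medians of −0.05, −0.15 and −0.08.

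The difference inside MSC was then set beside the difference between the neighbouring classes, Osteoblast progenitor minus Adipocyte progenitor, in held-out counts. The authors defined those classes on all counts, the held-out ones included, and the ends of the rebuilt order are classes of the same 2 routes. The comparison is therefore a description, and no p-value of it is given. Its 3344 genes were filtered over the groups and both classes together, so a gene could enter through a class where it was high. Omd, for one, had too few held-out counts inside MSC for the test of 2621 genes. Of the 39 genes called inside MSC, 38 had the same sign between the classes, and of all 3344 genes 1825 had. Where edgeR's threshold is used only to pick genes, 73 of the 3344 (2.18%) had a value inside MSC above the class difference and 43 (1.29%) below it, and 10 of the 39 were among them. Over all 3344 genes the Pearson correlation of the 2 differences was 0.295, across genes that share libraries and are not replicates.

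**Figure D5:**
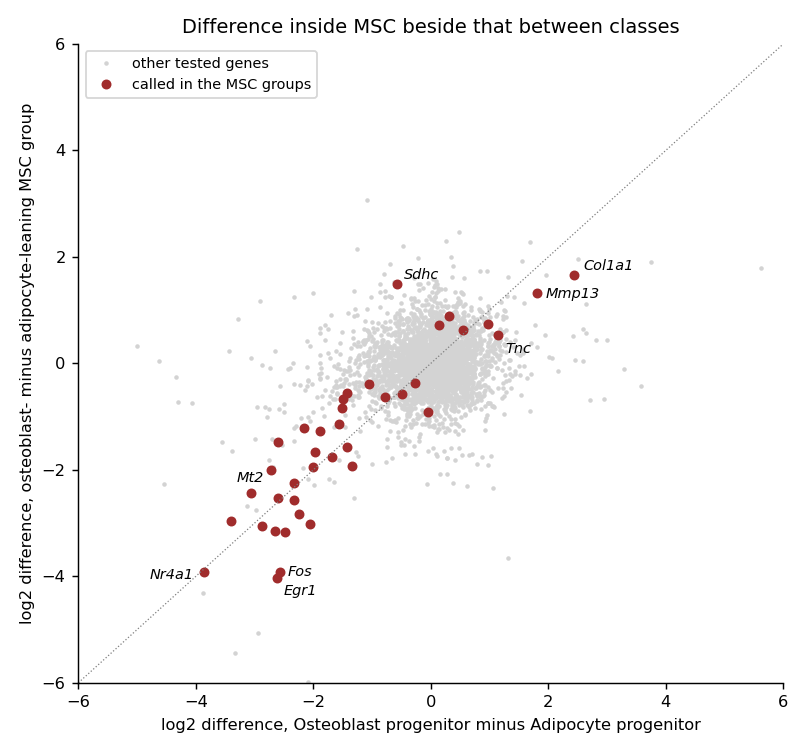
log2 difference between the MSC groups of the rebuilt bias (vertical) against the log2 difference between Osteoblast progenitor and Adipocyte progenitor (horizontal), both in held-out counts, for 3344 genes, with the 39 called inside MSC in red and the dotted line of equality. Fos and Egr1 lie below the line, at −3.92 and −4.04 inside MSC, and 2 genes lie outside the plot.

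Fos differed by −3.92 inside MSC and by −2.56 between the classes, a difference of −1.36 (SE 0.19). For Egr1 the difference was −1.41 (SE 0.36) and for Dusp1 −0.96 (SE 0.29), while for Nr4a1 it was −0.05 (SE 0.40) and for Junb 0.07 (SE 0.37). The first 3 thus lay below the line of equality, and the last 2 within a standard error of it. Ctgf stood at −0.92 inside MSC and at −0.04 between the classes. Nfkbia, Hspa8, Igfbp5 and Sfrp4 stood above their class difference by 0.95, 0.67, 0.66 and 0.86.

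Several genes that were high in Osteoblast progenitor had small values inside MSC. Lum, the small proteoglycan lumican, was at 3.29 between the classes and at −0.11 inside MSC. Omd, osteomodulin, was at 2.94 and −0.67, the phosphate transporter Slc20a2 at 3.57 and −0.43, and the Wnt inhibitor Wif1 at 2.41 and 0.51. The difference was −1.94 (SE 0.54) for Alpl and −0.84 (SE 0.19) for Spp1. For Tnc the class difference was 1.15 and that inside MSC 0.53. The differences of Col1a1 (−0.79, SE 0.29) and Mmp13 (−0.48, SE 0.24) fell short of the threshold. Ssbp1 and Nek9 complete the 5 lowest genes, at −4.97 and −2.75. Omd, Slc20a2, Ssbp1 and Nek9 stood at 23.3 to 61.7 CPM of all counts in MSC. Their values inside MSC thus rest on few counts.

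At the other side stood genes that were higher in Adipocyte progenitor than in Osteoblast progenitor and not lower at the osteoblast end inside MSC. Among the highest were Tnfaip3, an inhibitor of NF-kappaB (5.33, SE 1.31), P3h2, a collagen hydroxylase (4.11, SE 1.18), Tiparp, a target of the aryl hydrocarbon receptor (4.07, SE 0.93), and Icam1, an adhesion molecule (3.66, SE 0.90). Between the classes these 4 ran from −5.01 to −2.90, and inside MSC from 0.23 to 1.17. In MSC they stood at 23.3 to 64.3 CPM of all counts, so the values inside MSC rest on few counts. Cebpb was at −2.50 between the classes and −0.76 inside MSC, and Cebpd at −1.71 and −0.62. Of 14 niche factors, 7 stood above the class difference and 1 (Spp1) below, against 2.18% and 1.29% of all 3344 genes. The classes were defined with these counts, so a gene that separates them and is flat inside MSC lies off the line. Among the 7 were Cxcl12 (0.36, SE 0.10), Kitl (0.75, SE 0.21), Vcam1 (0.86, SE 0.17), Esm1 (1.15, SE 0.25) and Bmp4 (1.20, SE 0.34). Lepr (0.65, SE 0.19) also stood above its class difference. Their class differences were −0.45 for Cxcl12, −0.78 for Kitl, −0.80 for Vcam1, −1.37 for Esm1, −0.55 for Bmp4 and −0.95 for Lepr.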

How the data were processed

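The authors deposited 1 table with a raw count for each of 25289 genes in 15028 barcodes; Bowtie 1.1.1 and GRCm38 are named, with no order of use, per the submitters' processing notes. For molecular identifiers and annotation, the handling is not given in the sources used here. Per the file headers, the authors' fractions are the mitochondrial share of counts, the fate probabilities and the pseudotimes, and the authors' potential is a score with no stated unit, which was not used for any result. How the authors computed the probabilities is not given in the sources used here. Doublets were not called here, since the authors' filter and classes were used as deposited.

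MSC cells had 500 to 3748 counts and 1755382 in all, of which 877968 were held out. Counts were split with binomial probability 0.5. In the ordering part, each cell was scaled to 10000 counts and logged, and 2000 variable genes gave 30 principal components (scanpy 1.11.5, scikit-learn 1.9.0). A random walk over 15 nearest neighbours ended in Pre-adipocyte, Pro-osteoblast or Pro-chondrocyte. Held-out sums of 4 groups in 2 samples (8 sums) went through edgeR 4.0.16 in R 4.3.3, with TMM factors, filterByExpr with a minimum count of 10, terms for group and sample, quasi-likelihood tests, Benjamini-Hochberg adjustment and an adjusted p under 0.05. With few residual degrees of freedom the test leans on spread pooled over genes (common dispersion 0.00998). The standard error is the log2 difference over the square root of F. The comparison with classes used 12 sums. Values per sample are log2 CPM differences with a prior count of 2, and CPM uses raw totals. At an unadjusted p under 0.05 there were 207 genes. The steps were tested on simulated data.

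The members, the 28 gene lists and the rule for named genes were chosen with earlier results of these data known. The rule takes the 14 highest and 14 lowest called genes with at least 50 CPM and 1 direction in both samples, the 6 highest and 6 lowest of the deposited groups, the 5 highest and 5 lowest against the classes, up to 3 highest and 3 lowest of each list, and a set of fixed genes. Intervals cover counting error only. Alternatives were another scaling (DESeq2 1.42.0 size factors, as RLE), no filter, DESeq2, other splits, group sizes, neighbours and end classes, an ordering by class profiles, single barcodes and equal depth. Positions and promoters are from RefSeq (GRCm38.p6). Of the genes that the rule takes from the comparison with classes, 1 is not reported here.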

Additional observations from a re-analysis of the deposited data

How the results depend on the processing

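Counts of called genes moved with the setting, and 12 of the 39 genes called for the rebuilt bias passed in every one of 15 other settings. For the rebuilt bias, 8 genes rose and 31 fell. DESeq2 gave 2 and 14, the extreme groups alone 1 and 16, no filter 4 higher, 30 neighbours 5 higher, wider end classes 14 higher, each barcode once 4 higher, the removal of 4 outlying cells (chosen after seeing the data) 4 higher, and equal depth 14 lower. Without the replicate block for sample, 9 rose and 31 fell. Leaving out 1 sample left no residual degrees of freedom and gave no count, and no called gene changed sign in the other sample. For the difference from the classes, no filter gave 44 higher and 22 lower and DESeq2 19 and 6, against 73 and 43. For the deposited bias (30 higher and 53 lower), no filter gave 101 and 174, equal depth 12 and 31, 1.5-fold 201 and 180, 3-fold 1 and 19, the osteoblast probability alone 52 higher, and 1 sample alone 224 to 335 higher and 255 to 326 lower. Nog turned to −0.0855 under the osteoblast probability alone. Another scaling moved the median of all genes by less than 0.1. The causes were not tested, apart from fewer counts per cell at equal depth and fewer sums with the extreme groups. Genes below about 10 counts per sum could not be tested, Sp7 and Pparg among them, so their lack of a call says nothing of their level.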

Other observations

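Of 20 heat shock and folding genes compared between the deposited groups, 3 were lower by at least 2-fold in both samples, against 1.1% of all genes, and 3 of the 20 were higher in both samples by any amount. This is a description with no test, and the 3 are named after their values were seen. Hspa1b, an inducible chaperone whose near-identical copy Hspa1a can share its reads, stood at 53.3 CPM of all counts in the adipocyte-leaning group of Stroma1 and 62.7 in that of Stroma2, against 6.35 and 9.95 in the osteoblast-leaning groups. Dnajb1, its co-chaperone, stood at 199 and 209 CPM against 63.5 and 89.5, and Hspb1, a small heat shock protein, at 155 and 195 against 69.8 and 74.6. In held-out counts neither Dnajb1 (log2 difference −0.50, SE 0.39) nor Hspb1 (−1.41, SE 0.47, edgeR adjusted p = 0.16) passed, and Hspa1b was too low to test. Nfkbiz, an inhibitor-like partner of NF-kappaB, stood at 92.0 and 80.1 CPM of all counts against 12.7 and 34.8.

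Complement and serpin genes gave no call among 12 tested, against 0.305% and 1.18% of all genes tested. Their median log2 difference was −0.30 in held-out counts. Of these 12, 8 were lower in both samples and 1 was higher in both, against 715 and 690 of 2621 genes. C1ra, a protease of the first complement component, stood at 588 and 471 CPM in the adipocyte-leaning and at 362 and 333 in the osteoblast-leaning groups (−0.63, SE 0.24, edgeR adjusted p = 0.31). C3, the central complement protein, stood at 467 and 477 CPM against 399 and 267 (−0.58, SE 0.26).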
